A study of Mus musculus with 13 samples.

Results

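The miR-466, miR-467, miR-669 and miR-297 miRNAs are a large group of mouse miRNAs, many of which come from a run of repeated hairpins inside the gene Sfmbt2. They were measured here by AGO CLIP, in which Argonaute (AGO) is pulled down after ultraviolet crosslinking and the RNA fragments held by it are sequenced; each sequenced fragment is called a tag. The members were taken by name, as every row of the deposited table of mature miRNAs whose name starts with mmu-miR-466, mmu-miR-467, mmu-miR-669 or mmu-miR-297 followed by a letter, a hyphen or nothing. This gave 49 of 1705 rows: 17 of miR-466, 8 of miR-467, 21 of miR-669 and 3 of miR-297.

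All libraries came from cortex of wild-type C57BL6 mice aged 7 to 8 weeks that were anaesthetised with isoflurane. In the ischemic mice a suture closed the middle cerebral artery (MCAO) for 35 min, with the common carotid artery tied, and the mice recovered for 3 h before the cortex was dissected. The ipsilateral libraries (5) came from the hemisphere of the closed artery and the contralateral libraries (4) from the other hemisphere. The sham libraries (4) came from mice whose arteries were exposed for the same time with no filament put in. A replicate number stands for 1 day of surgery, and the labels do not say how many mice a library holds.

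A miRNA in AGO pairs with a messenger RNA mainly through its seed, bases 2 to 8 from the 5′ end, and the target is then repressed. One hairpin can give a mature miRNA from each side, the 5p and the 3p arm, and usually one arm is kept more than the other. Sfmbt2 encodes a protein of the Polycomb group, which keeps genes silent; the gene is imprinted in the placenta, where its intronic miRNAs are abundant, and the repeated block is found in rodents. Many of these miRNAs are rich in alternating U and G or C and A, so copies differ by few bases and a short tag may match more than 1 row. How such tags were assigned is not given in the sources used here, and values of single rows carry that limit.

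Libraries were shallow and of unequal size: the smallest, ipsilateral replicate 5, had 3851 miRNA tags and the largest, contralateral replicate 1, had 61708, and the median miRNA of a library had 1 to 24 tags. Every row of the table holds at least 50 tags over the 13 libraries. The neuronal marker miR-124-3p was the second most abundant miRNA by mean level and the 4 neuronal markers examined made up 0.574% to 1.92% of a library, while the endothelial marker miR-126a-3p lay between 0 and 0.0340% and the oligodendrocyte marker miR-338-3p between 0 and 0.0915%. Most of the neuronal share was miR-124-3p, with a sham mean of 1.19% of the 1.47% for all 4. Relative to the median miRNA of a library, the 4 neuronal markers lay at 0.54 to 28.8 times. The 5 myeloid and leukocyte markers made up 0.162% to 0.267% in all groups. The 2 vascular smooth muscle markers (miR-143-3p and miR-145a-5p) made up 0.0519% to 0.174% of a library. For the 2 red blood cell markers (miR-451a and miR-144-3p) it was 0.0683% to 0.182%. In tissue samples like these, fewer cells of a type and less of a miRNA per cell cannot be told apart, and tags on AGO do not measure a miRNA's total level.

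The name of the cluster held for most but not all members. GENCODE M21 (GRCm38, the assembly also called mm10) places 81 hairpin genes of these names, 71 of them within Sfmbt2 (chr2:10370510-10595253, plus strand). All 71 lie on the strand of the gene in intron 10 of its 23-exon transcript Sfmbt2-201, between bases 10466663 and 10518279, a stretch of 51617 bases, and none overlaps an exon. Of the member rows, 38 have all their hairpins there and hold 12677 tags (59.2% of the members' tags). A further 2 rows, miR-466f and miR-466f-3p, have hairpins in Sfmbt2 and on chromosome 13. The other 9 rows come from hairpins elsewhere, on chromosomes 3, 5, 9, 10, 11 and 13, and hold 8342 tags (38.9%). The group is therefore called here by its names, and not by the host gene.

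Mature sequences from the RefSeq table (GRCm38.p6) matched 8 of the 49 members, all of them from hairpins outside Sfmbt2. They are shown because they carry the repeat pattern that the names share, and because their seeds were searched in the AGO peaks. Capitals mark the seed, and miR-574-5p and miR-1187, which are not members, follow for comparison as the most abundant other rows with a long repeat run:
miR-467g: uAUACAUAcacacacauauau
miR-467f: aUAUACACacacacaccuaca
miR-466q: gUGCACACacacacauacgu
miR-466i-3p: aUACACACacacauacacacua
miR-467h: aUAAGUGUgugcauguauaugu
miR-669n: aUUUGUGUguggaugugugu
miR-466k: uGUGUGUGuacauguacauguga
miR-466j: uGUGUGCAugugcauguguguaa
miR-574-5p: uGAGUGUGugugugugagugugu
miR-1187: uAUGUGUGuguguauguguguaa

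Their genomic positions are chr5:34732872-34732892 for miR-467g (minus strand), chr11:69635419-69635439 for miR-467f (minus), chr3:28419988-28420007 for miR-466q (plus), chr13:17747552-17747573 for miR-466i-3p (plus), chr9:115381898-115381919 for miR-467h (plus), chr3:115979905-115979924 for miR-669n (plus), chr3:85467396-85467418 for miR-466k (plus) and chr10:60960802-60960824 for miR-466j (plus). Of the 9 hairpin genes of member rows outside Sfmbt2, only that of miR-466q lies in an intron of a gene on its own strand, Tnik. The hairpins of miR-466i, miR-467f, miR-467g, miR-669n and miR-466k lie within introns on the opposite strand of Cdk13, Fxr2, Grk4, Slc30a7 and Gm37240. Those of miR-466j, miR-467h and miR-466f-4 overlap no other annotated gene.

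The sequences fall into 2 patterns. In miR-467g, miR-467f, miR-466q and miR-466i-3p the alternating run of C and A is 9 to 12 bases long, and miR-669n and miR-466k have U and G runs of 8 and 9 bases. Runs of 8 or more bases of either kind occur in 13 of the 1469 rows with a sequence, 6 of them members, and each of the 4 rows with such a C and A run is a member. The median total over all libraries was 469 tags in those 13 rows and 170 tags in the 1456 rows without such a run, and 8 of the 13 lie in the top 10% of rows. The 8 member seeds differ from each other. Among the 1469 rows with a sequence, that of miR-467h is shared with miR-668-5p. By positions 2 to 7 alone, miR-467f also matches let-7b-3p, let-7f-1-3p, let-7f-2-3p and miR-98-3p, and miR-467h also matches miR-5617-5p. Rows without a sequence, the other members included, were not searched.

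The members held more AGO tags than the typical row. Whether tags of other RNAs with similar repeats were counted in these rows is not given in the sources used here. Together they held 21430 of 408129 miRNA tags, 5.25% of tags on 2.87% of rows. The median member had 271 tags over all libraries, against 172 for all rows; 36 of 49 lay above that and 15 were among the top 10% of rows (390.2 tags or more). Most were still of modest level: relative to the median miRNA of the same library, 32 members were under 2-fold, 12 were under it, and 3 reached 5-fold or more. By family, miR-466 held 48.8% of the members' tags, miR-669 37.0%, miR-467 11.1% and miR-297 3.11%.

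A single member, miR-466i-5p, accounted for 24.2% of the group. It had 5175 tags, the highest total of the table. By mean CPM (counts per 1000000 miRNA tags of a library) it ranked behind only miR-26a-5p and miR-124-3p, and ahead of miR-7058-3p. Its hairpin lies at chr13:17747473-17747593, not in Sfmbt2. Among the rows outside Sfmbt2 it held most tags, and the next member, miR-669c-3p, had 2.90-fold fewer.

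In sham cortex miR-466i-5p made up 1.84%, 0.963%, 0.996% and 1.19% of miRNA tags (replicates 1, 2, 3 and 5). In contralateral cortex it made up 1.64%, 1.09%, 1.26% and 0.595% (replicates 1, 2, 4 and 5). In ipsilateral cortex it made up 1.22%, 1.11%, 1.24%, 0.844% and 0.545% (replicates 1 to 5). The ranges of the 3 groups overlap, with the highest value in replicate 1 of sham and the lowest in replicate 5 of ipsilateral cortex. Its coefficient of variation was 32.6% in sham, 37.9% in contralateral and 29.8% in ipsilateral libraries. For the other 7 of the 8 most abundant members it was 11.1% to 19.7% in sham, 10.5% to 42.9% in contralateral and 7.74% to 39.7% in ipsilateral libraries. By this measure miR-466i-5p varied more than these in sham libraries and within their range in the other groups. The coefficient includes counting error, which is larger for rows with fewer tags. Relative to counting error (chi-square per degree of freedom), the spread of miR-466i-5p was 57.65, 40.55 and 6.56 in the 3 groups. Among the other 7 it was at most 5.68, 9.70 and 3.53, and this ratio also grows with the number of tags.

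The 3 libraries of replicate 1 lay at 1.22% to 1.84% and the other 10 at 0.545% to 1.26%. For miR-669c-3p, a 3p-arm miRNA from Mir669c within Sfmbt2 (chr2:10509296-10509404), the same 3 libraries lay above all others, at 0.480% to 0.545% against 0.156% to 0.458%. These 3 libraries also had more of their AGO peak tags in introns and between genes, 50.4% to 60.4% against 17.5% to 44.2%. The part of that difference in the miRNA levels was not tested.

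The next members in the order, miR-669c-3p and miR-669b-3p, both come from Sfmbt2. Sham cortex had miR-669c-3p at 0.544%, 0.369%, 0.410% and 0.458%, contralateral cortex at 0.545%, 0.378%, 0.374% and 0.273%, and ipsilateral cortex at 0.480%, 0.353%, 0.423%, 0.386% and 0.156%. The group means were 0.445 ± 0.0750% (SD, n = 4), 0.393 ± 0.112% (n = 4) and 0.360 ± 0.123% (n = 5), and the ranges overlap. For miR-669b-3p the values were 0.201% to 0.268% in sham and 0.214% to 0.260% in the ipsilateral libraries. Contralateral replicate 5, at 0.417%, stood apart from the other contralateral libraries (0.191% to 0.213%).

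The remaining 5 of the 8 most abundant members were miR-467g, miR-466m-3p, miR-669p-3p, miR-467f and miR-466q. They lay at a median of 3.20 to 4.38 times the median miRNA of a library, and their ranges over libraries overlap, so neighbours in this order do not differ beyond their spread. Of these, miR-466m-3p and miR-669p-3p come from Sfmbt2. At the other end of the order, miR-467c-5p had 59 tags in all, between 0 and 0.0251% of a library.

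**Figure D1:**
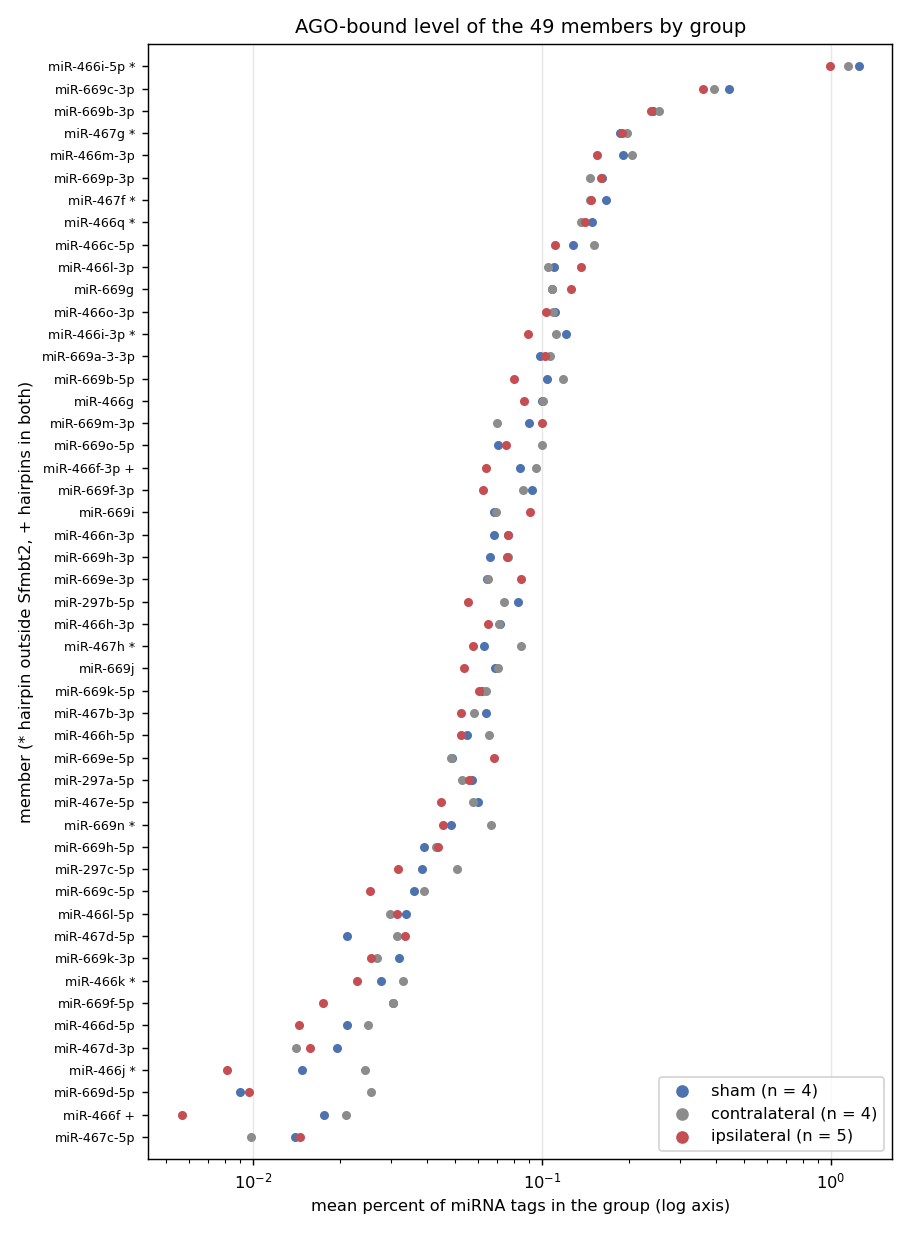
Mean percent of miRNA tags of each of the 49 members (log axis) in sham (n = 4), contralateral (n = 4) and ipsilateral (n = 5) libraries, ordered by mean CPM over all libraries, with a star for hairpins outside Sfmbt2 and a plus for rows with hairpins in both places. miR-466i-5p lies apart at the top, and the 3 groups lie close together for most members.

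Of the 49 members, 39 had tags in all 13 libraries. The other 10 were all at 0 in ipsilateral replicate 5, where a count of 0 allows up to 0.0779% of miRNA tags (3 counts, counting error only). A level of 0 in that library therefore says little.

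Where both arms of a hairpin were in the table, AGO held one arm more than the other for most names, and the favoured arm differed between members. Of 10 names with both arms, 3p was higher in every library for 4 (miR-669c, miR-669b, miR-466l and miR-669f) and 5p for 2 (miR-466i and miR-669k). The other 4 (miR-466h, miR-669e, miR-669h and miR-467d) had no constant order. Over the whole group the 18 rows named 3p had a median of 344.5 tags and the 19 named 5p a median of 210 tags, against 173 and 174 for all 3p and 5p rows of the table.

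For miR-466i the 5p arm took 92.2% of the tags of both arms over all libraries. By library it was 94.1%, 91.2%, 87.9% and 89.4% in sham, 93.1%, 92.7%, 86.8% and 92.6% in contralateral, and 89.8%, 94.1%, 93.3%, 92.2% and 87.5% in the ipsilateral libraries. The groups overlap and no library fell under 86.8%. The 5p arm of miR-669c, by contrast, took 7.18% of the tags, with 4.20% to 10.5% in sham, 4.27% to 13.04% in contralateral and 0% to 8.93% in the ipsilateral libraries.

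In miR-669b the 5p arm took 30.4% and in miR-466l 23.6% of the tags. Their group means were 30.2 ± 3.56% and 23.9 ± 8.45% in sham (SD, n = 4), 32.8 ± 4.69% and 23.1 ± 9.32% in contralateral (n = 4), and 24.7 ± 9.36% and 18.8 ± 11.9% in ipsilateral libraries (n = 5). These differences between groups are smaller than the spread within the ipsilateral group, in which replicate 5 is lowest for both.

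**Figure D2:**
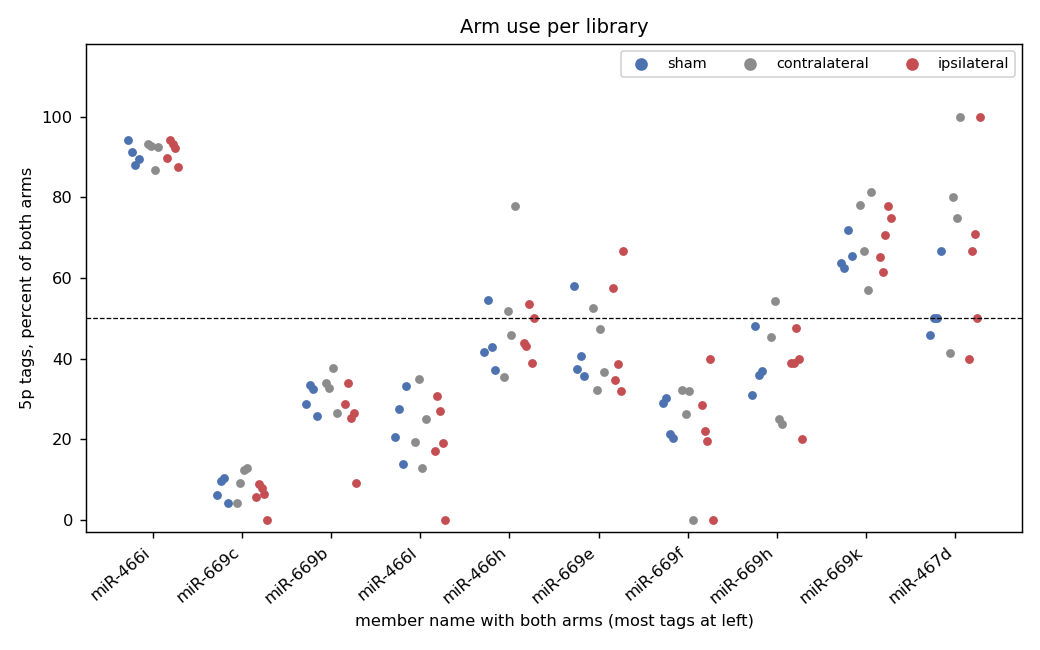
Tags on the 5p arm as a percent of the tags on both arms, for the 10 names with both arms in the table; each point is 1 library and colours mark the groups. miR-466i lies near the top in all libraries and miR-669c near the bottom, while miR-467d, with the fewest tags, is the most scattered.

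The comparison of ipsilateral with sham cortex addresses what ischemia changes in AGO, and none of these miRNAs passed the test in it. All members together made up 6.15%, 4.71%, 4.93% and 5.45% of miRNA tags in sham, 5.62%, 4.78%, 5.59% and 5.19% in contralateral and 5.11%, 4.98%, 5.02%, 4.84% and 3.84% in the ipsilateral libraries. The means were 5.31 ± 0.640% (SD, n = 4), 5.29 ± 0.394% (n = 4) and 4.76 ± 0.522% (n = 5), and the ranges overlap. The lowest value, ipsilateral replicate 5, rests on 148 tags, with a 95% exact binomial interval of 3.26% to 4.50%; the largest library, contralateral replicate 1, has an interval of 5.44% to 5.80%.

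Leaving out miR-466i-5p narrowed the spread among sham libraries. The means were then 4.06 ± 0.271% in sham, 4.15 ± 0.401% in contralateral and 3.77 ± 0.274% in the ipsilateral libraries, with overlapping ranges. Rows with all hairpins in Sfmbt2 made up 3.19 ± 0.163%, 3.23 ± 0.347% and 3.00 ± 0.185%, and rows from elsewhere 2.02 ± 0.465%, 1.95 ± 0.448% and 1.69 ± 0.390%. The imprinted Dlk1-Dio3 cluster, another large miRNA cluster, made up 4.00 ± 0.212%, 4.11 ± 0.0937% and 3.86 ± 0.451% in 79 rows.

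**Figure D3:**
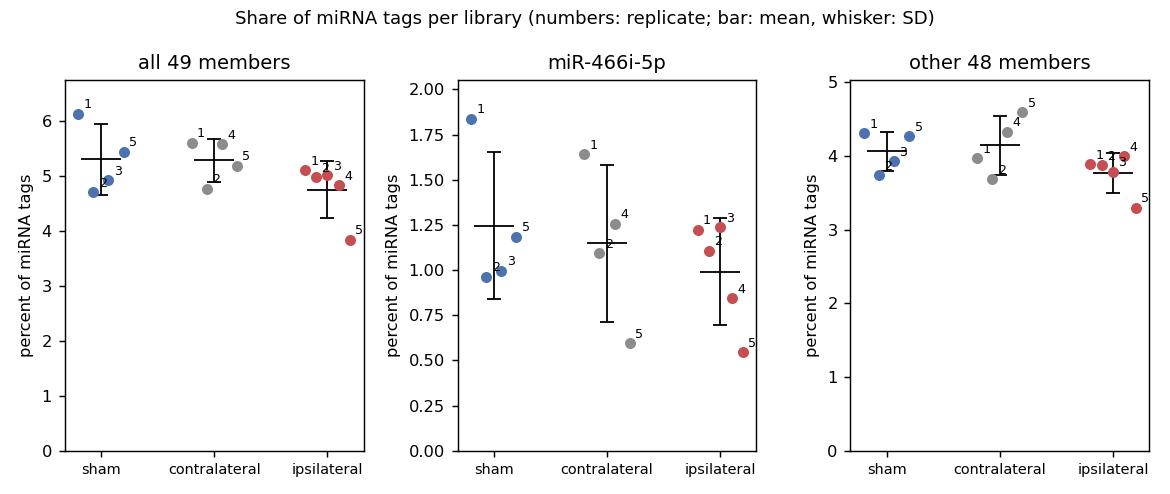
Percent of miRNA tags per library for all members, for miR-466i-5p and for the other members together; numbers are replicates, bars are means and whiskers SD. Sham and contralateral replicate 1 are high in the middle panel, and the groups overlap in every panel.

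In the edgeR quasi-likelihood fit of all libraries, 43 of the 49 members passed the filter on low counts; those left out were miR-466d-5p, miR-466f, miR-466j, miR-467c-5p, miR-467d-3p and miR-669d-5p. Of 1427 miRNAs tested, 0 passed a Benjamini-Hochberg adjusted p of 0.05 in ipsilateral against sham cortex (0%), and so 0 members did; the smallest adjusted p was 0.9996. At an unadjusted p under 0.05 there were 0 of 43 members and 35 of all miRNAs (2.45%), and DESeq2 gave 0 members and 13 miRNAs. For 28 of 43 members the log2 fold change was negative, against 50.7% of all miRNAs, and the median was -0.09, against -0.0036 for all miRNAs. In none of the 43 tested members did the ipsilateral libraries lie wholly above or below the sham libraries, as they did for 0.631% and 0.701% of all tested miRNAs. The members' median was -0.0015 without sham replicate 1, -0.031 without ipsilateral replicate 3 and -0.15 without sham replicate 2. The size of this small shift thus depended on single libraries.

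Abundant members had intervals that include 0. The log2 fold change of miR-466i-5p was -0.34 (SE 0.51, 95% interval -1.38 to 0.69), which leaves room for a fall of more than 2-fold or a rise; without sham replicate 1 it was -0.024. That of miR-669c-3p was -0.27 (SE 0.38; -0.098 without sham replicate 1) and that of miR-467g -0.09 (SE 0.27, interval -0.64 to 0.45). The 3 members with the smallest p among negative values were miR-297b-5p at -0.37 (SE 0.24), miR-669f-3p at -0.36 (SE 0.24) and miR-467e-5p at -0.35 (SE 0.25). The miR-297b-5p value was -0.75 without ipsilateral replicate 2 and -0.23 without ipsilateral replicate 3. Among positive values they were miR-669e-3p at 0.33 (SE 0.24), miR-467d-5p at 0.49 (SE 0.40) and miR-669i at 0.25 (SE 0.24).

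The ischemic and the opposite hemisphere are set against each other in the ipsilateral against contralateral comparison, and it too called 0 of 1427 miRNAs (0%), with a smallest adjusted p of 0.9991 by edgeR. At an unadjusted p under 0.05 there were 2 of 43 members and 52 of all miRNAs (3.64%). DESeq2 gave 1 member and 29 miRNAs at that level, and called 0. The median log2 fold change of the members was -0.13, with 29 of 43 negative, against 50.7% of all miRNAs.

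The pair at unadjusted p under 0.05 was miR-669m-3p, at 0.53 (SE 0.24), and miR-467h, at -0.54 (SE 0.25). As a percent of miRNA tags, miR-669m-3p had a median of 0.0616% in contralateral (0.0534% to 0.103%) and 0.106% in ipsilateral libraries (0.0719% to 0.110%), and miR-467h had medians of 0.0764% (0.0568% to 0.130%) and 0.0554% (0.0489% to 0.0719%). Both sets of ranges overlap. Neither passed the adjustment over all miRNAs.

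For 2 of the 43 tested members, miR-466c-5p and miR-669n, every ipsilateral library lay below every contralateral one, as it did for 0.841% of all tested miRNAs; no tested member lay wholly above (0.42% of all). The miR-466c-5p values were 1469 to 1767 CPM (TMM-scaled) in contralateral and 1082 to 1282 CPM in ipsilateral libraries. This separation rests on the TMM scaling: as a percent of miRNA tags the ranges overlap, at 0.126% to 0.171% and 0.0949% to 0.130%. Its log2 fold change was -0.48 (SE 0.24, adjusted p = 0.9991 by edgeR), and in sham libraries it ranged from 1135 to 1796 CPM, across both. The miR-669n values were 616.6 to 848.1 CPM against 256.5 to 568.9 CPM, with a log2 fold change of -0.40 (SE 0.26). Among the members left out by the filter, miR-466f, with 61 tags in all, had 0.0162% to 0.0243% of miRNA tags in contralateral and 0 to 0.0115% in ipsilateral libraries. It was at 0 in ipsilateral replicates 1 and 5, where up to 0.00863% and 0.0779% could have gone undetected. The share of all rows left out by the filter with such a difference was not counted.

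Contralateral against sham cortex sets the other hemisphere of the ischemic mice beside cortex of mice operated with no filament put in. In it 0 of 1427 miRNAs were called (0%), with a smallest adjusted p of 1 by edgeR. At an unadjusted p under 0.05 there were 0 of 43 members and 43 of all miRNAs (3.01%), and DESeq2 gave 0 and 20. The members' median log2 fold change was -0.03, with 24 of 43 negative, against 50.6% of all; the median was 0.06 without sham replicate 1 and 0.06 without contralateral replicate 2. The members with the smallest p were miR-467h at 0.39 (SE 0.24), miR-669n at 0.38 (SE 0.26) and miR-467d-5p at 0.56 (SE 0.40) among positive values, and miR-669m-3p at -0.37 (SE 0.24), miR-669k-3p at -0.47 (SE 0.35) and miR-297b-5p at -0.25 (SE 0.24) among negative ones. In none of the 43 tested members did the 2 groups lie apart, against 0.701% of all tested miRNAs above and 1.26% below. Among those left out by the filter, miR-669d-5p, with 54 tags in all, had 0.0162% to 0.0342% of miRNA tags in contralateral and 0.0054% to 0.0126% in sham libraries, which do not overlap. These values rest on 4 to 10 tags per contralateral and 2 to 5 tags per sham library. The share of all rows left out by the filter that lie apart in this way was not counted. The comparisons share libraries, so miR-467h and miR-669m-3p, high and low in the contralateral libraries, appear in both comparisons that use those libraries.

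**Figure D4:**
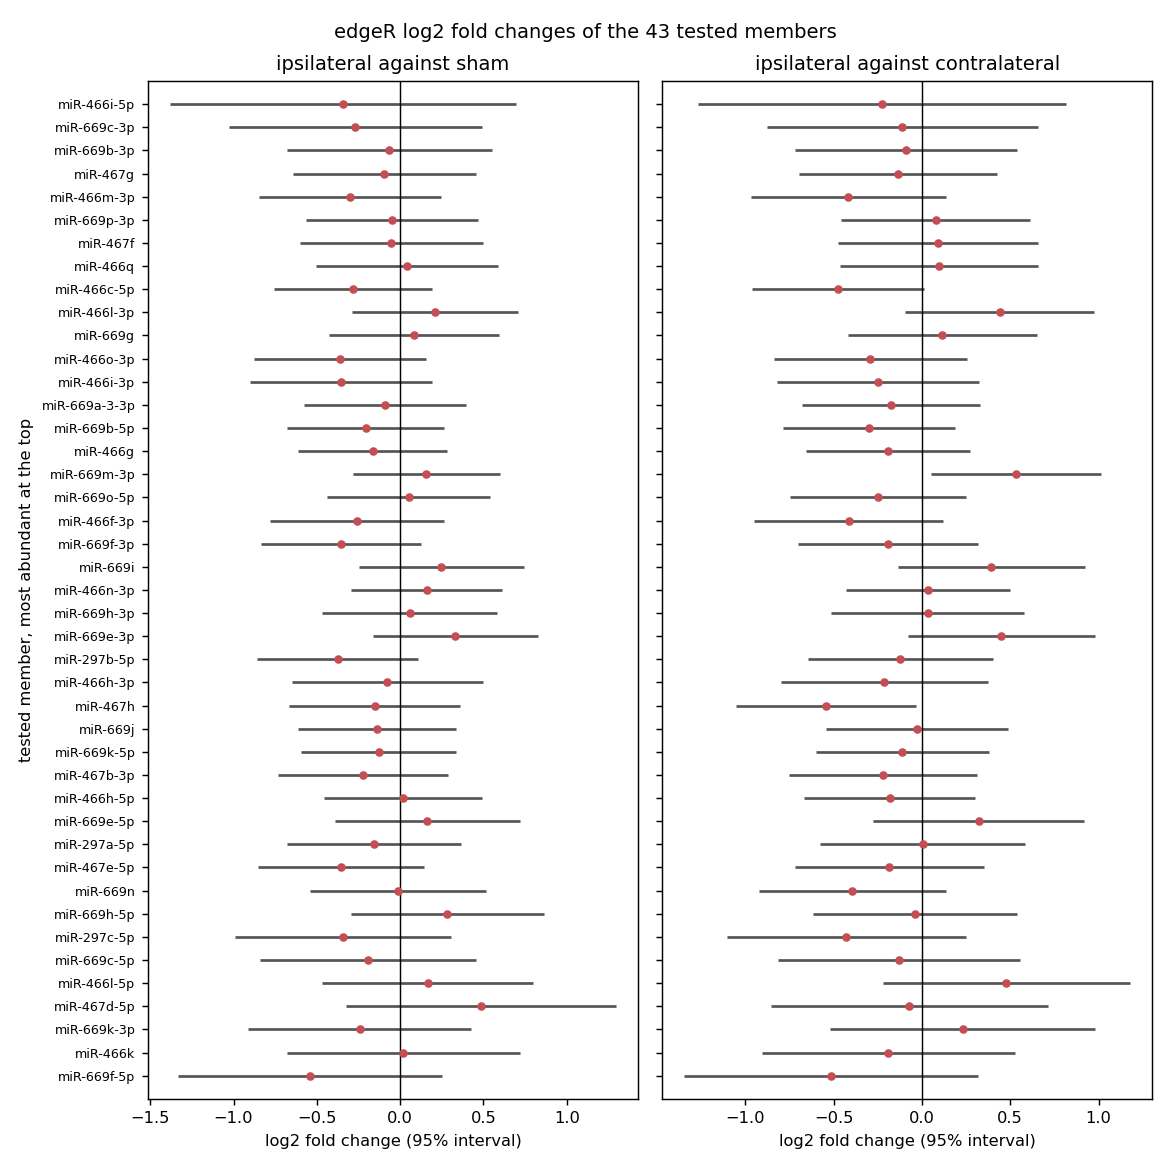
Log2 fold changes of the 43 tested members with 95% intervals from the edgeR fit, ipsilateral against sham (left) and against contralateral cortex (right), most abundant member at the top. In the left panel all intervals include 0; in the right panel those of miR-669m-3p and miR-467h do not, at 0.53 and -0.54, and neither passed the adjusted threshold.

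The tests could miss 2-fold changes in libraries of this depth. In data simulated on these libraries with 100 miRNAs changed 2-fold and 100 changed 4-fold, edgeR recovered 57.7%, 52.0% and 61.1% of the 2-fold changes that passed the filter and 97.9%, 94.8% and 99.0% of the 4-fold ones, in the order ipsilateral against sham, ipsilateral against contralateral and contralateral against sham. A 2-fold change of a single member could thus have gone uncalled. The simulation gave every miRNA the same spread, a biological coefficient of variation of 0.206. With this many changed miRNAs the adjusted threshold is also easier to pass. Recovery of a change in 1 miRNA alone was not simulated. Nor was it for a member of wider spread, such as miR-466i-5p (SE 0.51 in ipsilateral against sham).

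The other readout, AGO peaks on longer RNAs, listed no peak at the source of these miRNAs. How peaks were called, and how tags matching several hairpins were treated, is not given in the sources used here. The lack of a listed peak thus does not show a lack of tags there. Of 18284 peaks in the table none overlapped Sfmbt2 or any of the hairpins, where the fewest tags a listed peak holds is 3. Of 12 genes that make miRNAs or carry out their repression, 6 had peaks (Ago1, Ago2, Dicer1, Tnrc6a, Tnrc6b and Tnrc6c; 53 peaks), with 27.8, 27.3 and 23.4 tags per 10000 peak tags in sham, contralateral and ipsilateral cortex and SDs of 7.67, 7.92 and 7.52. Of a list of 12 genes, Sfmbt2 itself and others tied to Polycomb silencing, Rnf2 and Yy1 had peaks (3 peaks).

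On the target side, seed sites of some members were more frequent in 3'UTR peaks than in windows laid over the 3'UTRs of the same genes. A site was taken as a match to miRNA positions 2 to 8, or to 2 to 7 followed by A, in the transcript's own strand. It was searched in 6695 of 7232 3'UTR peaks (those with at least 50 transcript bases) and in 78022 windows of 80 bases from the longest 3'UTRs of the same genes. The windows cover the whole 3'UTR, the stretches under peaks included. Windows and peaks were also not matched for base composition, so the ratios are descriptions and a match is not shown to be a target.

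For miR-467g, whose sites read UAUGUAU or AUGUAUA, 3.05% of peaks and 1.65% of windows had a site, a ratio of 1.85. For miR-467f (GUGUAUA or UGUAUAA) it was 2.64% and 1.43%, also 1.85, and for miR-669n (ACACAAA or CACAAAA) 2.78% and 1.47%, or 1.90. Of the 177 peaks with a miR-467f site, 78 had the match to positions 2 to 8. The other kind of site is common to miR-467f and to 3p arms of let-7 and miR-98. The ratio for miR-26a-5p, the most abundant miRNA by mean CPM, was 2.00 (2.49% and 1.25%). The other seeds gave lower ratios: 1.39 for miR-466k (CACACAC or ACACACA), 1.16 for miR-466i-3p (GUGUGUA or UGUGUAA), 0.980 for miR-466j (UGCACAC or GCACACA) and 0.830 for miR-466q (GUGUGCA or UGUGCAA), with 1.07 for miR-467h (ACACUUA or CACUUAA). Sites such as CACACAC and UGCACAC can lie in 1 repeat, so 1 peak can count for more than 1 member.

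Any of the 8 seeds had a site in 960 peaks, 14.3% of those searched. These peaks held 14.1 ± 0.276% of 3'UTR peak tags in sham (13.8% to 14.4%), 14.7 ± 0.852% in contralateral (13.7% to 15.5%) and 15.4 ± 1.29% in the ipsilateral libraries (14.2% to 17.4%). The ranges overlap. Seed sites of miR-669n took 2.65 ± 0.160%, 3.01 ± 0.320% and 3.46 ± 1.02%, of which ipsilateral replicate 5, the smallest library, had 5.16%. Those of miR-466j took 2.01 ± 0.207%, 1.90 ± 0.232% and 1.60 ± 0.208%, and those of miR-466i-3p 2.23 ± 0.138%, 2.30 ± 0.306% and 2.70 ± 0.306%, with overlapping ranges in each comparison.

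**Figure D5:**
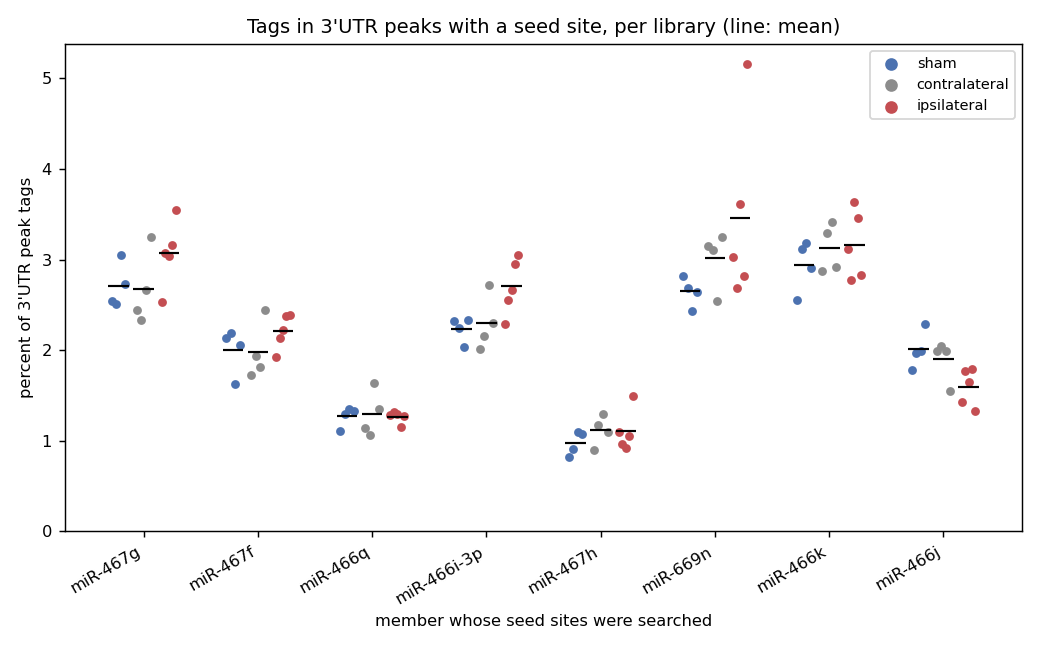
Percent of 3'UTR peak tags in peaks that hold a seed site of each of the 8 members with a sequence; points are libraries, lines are group means and colours mark the groups. Sites of miR-669n spread most, with ipsilateral replicate 5 at 5.16%, and the groups overlap for every member.

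A few peaks show what such sites look like, with the matched bases in capitals. They were chosen, after their values were seen, among the most covered for a seed. Peaks of a single chromosome had been left out before this choice, so a more covered peak there would not be shown. The peak at chr2:136781942-136782021 (plus strand, mm10) in the 3'UTR of Snap25, a protein of synaptic vesicle fusion, holds sites of miR-669n and miR-466k. The peak at chr2:102790617-102790696 (plus strand) in Slc1a2, which encodes the glutamate transporter GLT-1, holds one of miR-466i-3p. The peak at chr4:138458082-138458161 (plus strand) in Camk2n1, which encodes an inhibitor of the kinase CaMKII, holds one of miR-466j:
Snap25, miR-669n site: acacacacACACAAAguggauuu
Snap25, miR-466k site: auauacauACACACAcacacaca
Slc1a2, miR-466i-3p site: acauuucaUGUGUAAaauaacug
Camk2n1, miR-466j site: uugaaccaGCACACAgggcuauu

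The Snap25 peak had 35, 53 and 151 tags in sham, contralateral and ipsilateral cortex. Per 10000 3'UTR peak tags it had 3.54, 15.2, 12.7 and 11.4 in sham, 8.37, 35.3, 12.1 and 10.95 in contralateral and 8.99, 30.1, 53.0, 30.5 and 22.2 in ipsilateral libraries. Ipsilateral replicates 2 to 5 lie above all sham libraries, ipsilateral replicate 1 lies within their range, and contralateral replicate 2 is as high as the ipsilateral libraries. Set beside the library of the same day of surgery, ipsilateral was higher than sham in 4 of 4 pairs. It was higher than contralateral in 3 of 4. Some of these values rest on few tags: ipsilateral replicates 4 and 5 had 9 and 4, and ipsilateral replicate 1 had 10 against 5 in sham replicate 1. The peak was chosen after its values were seen and is given with no test. A second Snap25 peak with a miR-466k site (chr2:136781190-136781269) had pooled values per 10000 of 7.777, 3.448 and 12.61 in sham, contralateral and ipsilateral cortex. Among the pairs by day, however, it was higher in ipsilateral than in sham cortex in replicate 3 only. Per 10000 it had 7.192, 10.89 and 22.24 in ipsilateral replicates 1 to 3, against 9.922, 11.37 and 4.237 in sham. In replicate 5 it had 0 in ipsilateral, the smallest library, and 3.795 in sham. A peak in Lrrc58 with a miR-466i-3p site had pooled values of 15.02, 10.66 and 6.627 in sham, contralateral and ipsilateral cortex, the other direction. By library its groups overlap, with ipsilateral replicate 4 at 16.97 within the sham range of 12.63 to 18.97. The Slc1a2 peak had 55, 52 and 72 tags and the Camk2n1 peak 90, 75 and 95 tags, with ranges per library that overlap between groups. Other miRNAs can match these peaks, and no test ties their tags to a member.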

How the data were processed

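AGO CLIP libraries of mouse cortex (sham 4, contralateral 4, ipsilateral 5) were cloned after bromodeoxyuridine capture and sequenced as single-end reads, per the labels' protocols. The submitters' processing notes name the mm10 build and Novoalign; how duplicates were collapsed, how tags were assigned to miRNAs and how peaks were called is not given in the sources used here. Both tables deposited by the authors hold raw tag counts, per mature miRNA and per AGO peak, and no normalized values. If duplicates were kept, tags are not independent molecules, and intervals cover counting error only.

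The members and lists were chosen with earlier results of these data known. Members were taken by name and hairpins by gene name in GENCODE M21. miRNA counts were tested with edgeR 4.0.16 (R 4.3.3) by its two-sided quasi-likelihood test at a Benjamini-Hochberg adjusted p under 0.05, with 1 fit over the 13 libraries, scaled by TMM after filterByExpr; 1427 of 1705 miRNAs, with 94.8% of tags, were kept, and the biological coefficient of variation was 0.206. DESeq2 1.42.0 and other scalings, filters and sets of libraries were alternatives. The procedure was tested on simulated data. The SE of a log2 fold change was its size divided by the square root of the edgeR F statistic, and the 95% intervals follow from it. Such an SE can be far too small for a value near 0, as for miR-467b-3p in contralateral against sham cortex (SE 0.011). p-values measure the spread between libraries, and nothing in the labels says how many animals each holds.

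The series text says that a replicate number marks a day of surgery, so same-numbered libraries are paired by day. Deviations from the group means correlated at r = -0.058 to 0.244 in 11 same-number pairs and -0.213 to 0.182 in 45 other pairs.

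Members named with values are the 8 with the highest mean CPM, in each comparison the 3 with the smallest p in each direction, those in the 4 both-arm hairpins with the most tags, and the lowest. Members whose groups do not overlap, and the target peaks, were named after their values were seen.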

Additional observations from a re-analysis of the deposited data

Results flagged for a closer look

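Of 105 groups of libraries examined, 11 held a library that stood apart from the rest of its group by more than Dixon's 95% limit; chance gives about 5.25 (1 in 20). For all members together ipsilateral replicate 5 was low, at 3.84% of miRNA tags against 4.84% to 5.11% in the other ipsilateral libraries. It is the smallest library, with 3851 miRNA tags.

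For single members the values are percents of miRNA tags. In sham cortex miR-297b-5p was high in replicate 2, at 0.0905% against 0.0787% to 0.0803%, miR-466m-3p in replicate 1, at 0.222% against 0.176% to 0.184%, and miR-467d-5p in replicate 2, at 0.0251% against 0.0197% to 0.0201%. In contralateral cortex miR-669b-3p was high in replicate 5, at 0.417% against 0.191% to 0.213%, and miR-669f-3p in replicate 4, at 0.130% against 0.0683% to 0.0757%. In ipsilateral cortex miR-669m-3p was low in replicate 1, at 0.0719% against 0.104% to 0.110%, and miR-669n in replicate 5, at 0.0260% against 0.0473% to 0.0539%.

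The 5p arm of miR-466i took 86.8% of the tags of both arms in contralateral replicate 4, against 92.6% to 93.1% in the other contralateral libraries. Seed sites of miR-466q held 1.15% of 3'UTR tags in ipsilateral replicate 4, against 1.28% to 1.32%, and those of miR-466j held 1.55% in contralateral replicate 5, against 1.99% to 2.05%.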

How the results depend on the processing

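Under DESeq2, RLE factors, total counts only, no filter, only the 2 groups compared, and without replicate 1, the number of members called stayed at 0 in all 3 comparisons; leaving out each library in turn also gave 0 to 0. With the replicate block it was 0 as well, so the pairing by day changed no call. Of 877 alternative log2 fold changes of named members, 840 kept their direction, 37 reversed and 0 passed the threshold; the cause of a reversal was not tested. Under the replicate block miR-669b-3p reversed to 0.023 (ipsilateral against sham), 0.039 (ipsilateral against contralateral) and -0.016 (contralateral against sham), miR-467f to 0.0075 (ipsilateral against sham) and miR-467g to -0.0075 (contralateral against sham). Without replicate 1, miR-669c-3p reversed to 0.0057 (ipsilateral against contralateral). Leaving out 1 library gave, for ipsilateral against sham, ranges of -0.16 to 0.041 (miR-669b-3p), -0.17 to 0.077 (miR-669p-3p), -0.23 to 0.056 (miR-467f) and -0.041 to 0.21 (miR-466q). For ipsilateral against contralateral they were -0.44 to 0.070 (miR-466i-5p), -0.27 to 0.17 (miR-669c-3p), -0.21 to 0.22 (miR-669b-3p), -0.036 to 0.25 (miR-669p-3p), -0.088 to 0.33 (miR-467f) and -0.0060 to 0.44 (miR-466q). For contralateral against sham they were -0.41 to 0.19 (miR-466i-5p), -0.43 to 0.0043 (miR-669c-3p), -0.29 to 0.15 (miR-669b-3p), -0.067 to 0.13 (miR-467g), -0.014 to 0.25 (miR-466m-3p) and -0.40 to 0.11 (miR-466q). The members' share was, by construction, lower without the 10 most abundant miRNAs (4.44%, 4.51% and 4.11% in sham, contralateral and ipsilateral cortex) and for rows from Sfmbt2 alone (3.19%, 3.23% and 3.00%). Tags in peaks with a site of any of the 8 seeds were 8.11%, 8.61% and 9.16% with matches to positions 2 to 8 only, and 8.10%, 8.72% and 9.89% of the tags in all exonic peaks. Among the 1469 rows with a sequence none were identical, so none were summed; the other members could not be checked. Leaving out 1 library moved several single log2 fold changes by over 1.5 times without a change of sign, as for miR-466i-5p (-0.46 to -0.024) and miR-297b-5p (-0.75 to -0.23) in ipsilateral against sham cortex. In the smallest library, with 3851 miRNA tags, a count of 0 allows up to 0.0779%; how much depth, as opposed to spread between libraries, widened the intervals was not tested.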
